A study of Mus musculus with 6 samples.

Results

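The Gadd45 family was followed in TRAMP-C2 cells through 4 genes, Gadd45a, Gadd45b, Gadd45g and Gadd45gip1, out of 54446 genes in the table. The genes were picked by name, and Gadd45a was the reason for the choice, because earlier results of these data had it higher after cisplatin and not after oxaliplatin. For this reason its differences between the groups are given as a description, without a test. Gadd45b, Gadd45g and Gadd45gip1 came in through the family name, and their differences were tested. All 4 passed the filter on low counts that left 14956 genes.

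TRAMP-C2 is a mouse prostate cancer line of the C57BL/6 strain, derived from a tumour of the TRAMP transgenic mouse. Messenger RNA was sequenced from cells left without drug (control), from cells given 2 µM oxaliplatin and from cells given 2 µM cisplatin, each for 24 h, with 2 libraries per group. All cultures, the controls included, grew in medium with bovine insulin and dehydroisoandrosterone, an androgen precursor. A single line stood for each condition, and the labels do not say whether replicates were separate cultures, so that p-values measure the spread between these libraries, which may be technical.

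Libraries held 21345312 to 24041767 counts. A count of 3, taken as the floor of detection, equals 0.125 to 0.141 CPM, a unit that relates counts to the library's total. Of the epithelial markers, Krt8 (95.2 to 135 normalised counts over the 6 libraries), Krt18 (115 to 169.6) and Cdh1 (369 to 573) were present. Krt5 and the prostate secretory gene Pbsn had 0 counts, and Epcam and Tmprss2 stayed at or below 2.79. The mesenchymal gene Vim reached 52895 to 68052. Leukocyte markers stayed at or below 2.05 and endothelial markers at or below 7.84 in every library. Normalised counts are counts divided by a size factor per library, which ranged from 0.964 to 1.08.

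GADD45 proteins are small, acidic, stress-inducible proteins with no known enzyme activity that act by binding others. They bind and activate MAP3K4, the entry point to the p38 and JNK kinases, they bind CDK1 with cyclin B at the G2/M transition, and they bind PCNA and p21 at sites of DNA repair. They also recruit enzymes of excision repair to methylated promoters during active DNA demethylation. Gadd45a is a classical p53 target of the DNA damage response, Gadd45b is a rapid target of NF-κB and TGF-β, and Gadd45g is induced by cytokines and by differentiation signals. Gadd45gip1, also called CRIF1, is not a paralog. It was named for binding GADD45 proteins, and its product is a component of the large subunit of the mitochondrial ribosome.

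The promoters of the 3 paralogs are shown as a description. Whether their sequences bear on the responses to the drugs was not tested. Each runs from 250 bases before to 50 bases after the start that RefSeq annotates on GRCm38.p6. Capitals mark the CCAAT box, the octamer ATTTGCAT (ATGCAAAT on the other strand), the TATA box TATAAA and the E-box CACGTG. RefSeq held no entry for Gadd45gip1 in the table used.
Gadd45a, chr6:67037358-67037657, minus strand: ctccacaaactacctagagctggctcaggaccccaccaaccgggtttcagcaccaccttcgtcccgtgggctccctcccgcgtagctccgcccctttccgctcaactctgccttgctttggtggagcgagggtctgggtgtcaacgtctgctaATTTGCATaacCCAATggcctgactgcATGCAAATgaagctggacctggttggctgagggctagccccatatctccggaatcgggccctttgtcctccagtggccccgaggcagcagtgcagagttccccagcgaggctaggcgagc
Gadd45b, chr10:80929841-80930140, plus strand: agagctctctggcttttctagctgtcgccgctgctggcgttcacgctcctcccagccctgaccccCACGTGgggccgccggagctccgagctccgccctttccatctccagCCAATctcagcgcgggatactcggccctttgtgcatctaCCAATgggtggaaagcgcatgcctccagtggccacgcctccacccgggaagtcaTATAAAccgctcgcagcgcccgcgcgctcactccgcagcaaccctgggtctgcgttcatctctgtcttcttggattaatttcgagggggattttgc
Gadd45g, chr13:51846425-51846724, plus strand: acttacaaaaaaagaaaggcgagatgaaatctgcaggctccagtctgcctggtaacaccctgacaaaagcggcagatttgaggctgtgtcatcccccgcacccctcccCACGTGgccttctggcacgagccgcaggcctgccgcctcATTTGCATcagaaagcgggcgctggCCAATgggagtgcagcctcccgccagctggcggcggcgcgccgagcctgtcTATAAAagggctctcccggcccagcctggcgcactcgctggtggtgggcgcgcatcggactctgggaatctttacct

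These motifs were chosen after the promoter sequences had been seen, and they were searched on both strands. Positions are counted from the RefSeq start, with negative numbers before it. The GENCODE genes, whose coordinates are given below, start further upstream for Gadd45a and Gadd45b, so positions depend on the annotation used. The Gadd45a promoter held the octamer at -97 and, on the other strand, at -70, on either side of a CCAAT box at -86, and it held no TATAAA. Only 1.74% of 32851 promoters of the same length held an octamer, against 37.4% with CCAAT and 13.6% with TATAAA. These promoters belonged to 27025 genes, some of which had several, and did not cover every chromosome. A p53 half-site began at -40 in Gadd45a, a motif present in 8.36% of promoters. With the GENCODE start this site would lie inside the gene. A GC box (GGGCGG, 35.7% of promoters) lay at -163 on the other strand.

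The Gadd45b promoter held TATAAA at -46, CCAAT at -139 and -100, a GC box at -158 and the E-box at -185, the last in 7.15% of promoters. Gadd45g held TATAAA at -27, CCAAT at -78, the octamer at -103 and the E-box at -142. The E-box and TATA box were present in Gadd45b and Gadd45g and not in this window of Gadd45a, whereas the octamer was present in Gadd45a and Gadd45g. This sorting was made after the sequences were seen, so a link to the responses could not be tested on these 3 promoters. A core of the ATF4 element (TGATGNAA, 3.97% of promoters) was found at -101 on the other strand of Gadd45g, where it overlapped the octamer. The AP-1 site TGANTCA (7.81%), the element TGACGTCA (1.79%) and an NF-κB site (8.46%) were found in none of the 3 windows. The longest run of bases shared by Gadd45a and Gadd45b was 12 bases, by Gadd45b and Gadd45g 10 bases, around the E-box, and by Gadd45a and Gadd45g 8 bases. GC content was 61% in Gadd45a, 62% in Gadd45b and 62.3% in Gadd45g.

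Gadd45a (ENSMUSG00000036390) is encoded on chromosome 6 at 67035096 to 67037457 of GRCm38, on the minus strand, with 4 exons in its longest transcript. It had normalised counts of 109.0 and 99.5 in the control libraries, 97.5 and 78.8 in the oxaliplatin libraries and 246 and 272 in the cisplatin libraries. Both cisplatin libraries lay above all others, and both oxaliplatin libraries lay below the controls, replicate 1 only just. The means were 104 ± 6.68 for control, 88.1 ± 13.2 for oxaliplatin and 259 ± 18.5 for cisplatin (SD, n = 2).

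On the log2 scale of the DESeq2 fit, Gadd45a was 1.31 ± 0.23 (SE) higher in cisplatin than in control, a 2.49-fold difference with a 95% Wald interval of 0.86 to 1.77. In oxaliplatin it differed from control by -0.24 ± 0.25, with an interval of -0.72 to 0.25. Without oxaliplatin replicate 1 this value was -0.40. Over the 6 fits that left out 1 library each, the cisplatin value ran from 1.24 to 1.39. The pattern that led to the choice of Gadd45a, called higher after cisplatin and not called higher after oxaliplatin, was shared by 1294 of the 14956 genes (8.65%).

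Gadd45b (ENSMUSG00000015312, chromosome 10, 80930073 to 80932204, plus strand) had 1049 and 940.9 normalised counts in control, 1499 and 1569 in oxaliplatin and 1569 and 1623 in cisplatin. All 4 drug libraries lay above both control libraries. It rose by 0.62 ± 0.09 on the log2 scale (1.54-fold) in oxaliplatin, with a DESeq2 adjusted p of 1.82e-11, and by 0.68 ± 0.09 (1.60-fold) in cisplatin, with an adjusted p of 9.52e-14. The group means were 995 ± 76.5, 1534 ± 49.1 and 1596 ± 37.7 in control, oxaliplatin and cisplatin (SD, n = 2).

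Gadd45g (ENSMUSG00000021453, chromosome 13, 51846678 to 51848468, plus strand) had 351 and 339.9 normalised counts in control, 647 and 603 in oxaliplatin and 581 and 579 in cisplatin. Again all 4 drug libraries exceeded both controls, and here the 2 oxaliplatin libraries were the highest. Gadd45g rose by 0.86 ± 0.12 on the log2 scale (1.81-fold) in oxaliplatin, with a DESeq2 adjusted p of 1.99e-10, and by 0.75 ± 0.12 (1.68-fold) in cisplatin, with an adjusted p of 3.72e-08. Its means were 345 ± 7.66, 625 ± 31.3 and 580.2 ± 1.54 in the same order of groups (SD, n = 2).

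Gadd45gip1 (ENSMUSG00000033751, chromosome 8, 84831522 to 84835482, plus strand, 2 exons) had 1374 and 1117 normalised counts in control, 1429 and 1478 in oxaliplatin and 1304 and 1305 in cisplatin. The 2 control libraries lay on either side of the cisplatin libraries. Its differences did not pass the test, with 0.22 ± 0.10 on the log2 scale for oxaliplatin (DESeq2 adjusted p = 0.102) and 0.07 ± 0.10 for cisplatin (adjusted p = 0.684). The value rested on the control libraries, since without control replicate 1 the oxaliplatin difference was 0.38 with a DESeq2 adjusted p of 0.00575, and without control replicate 2 the cisplatin difference was -0.08 with an adjusted p of 0.702.

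**Figure D1:**
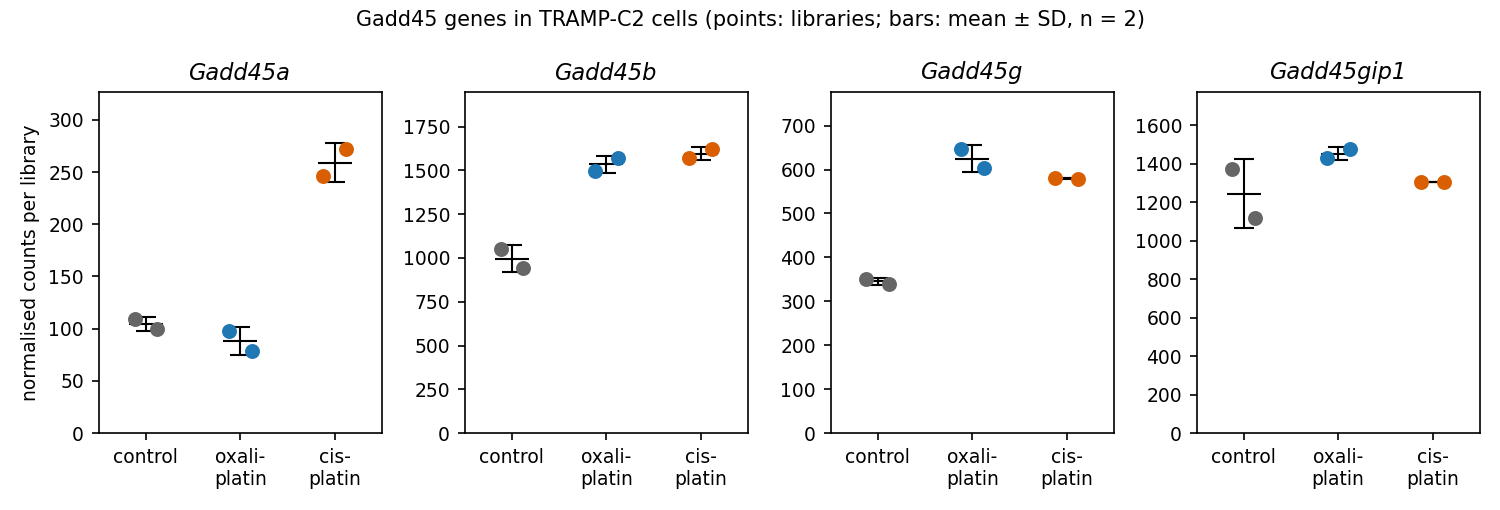
Normalised counts of the 4 genes in each library of control (grey), oxaliplatin (blue) and cisplatin (orange) cells, each panel with its own axis from 0. Points are libraries and bars are the mean ± SD of 2 libraries. Gadd45a was high in the cisplatin libraries alone (246 and 272), Gadd45b and Gadd45g were higher in all 4 drug libraries than in control, and the control libraries of Gadd45gip1 (1374 and 1117) spread more widely than its group means.

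Of the 3 members open to a test, Gadd45b and Gadd45g were called in each drug comparison, both as higher. Over all 14956 genes, 20.2% were called in oxaliplatin against control (10.7% higher and 9.5% lower) and 28.1% in cisplatin against control (15.7% higher and 12.4% lower). Control and oxaliplatin libraries were fully apart for all 4 members, as held for 64.8% of all genes, and control and cisplatin libraries for Gadd45a, Gadd45b and Gadd45g, as held for 69.4%. The calls of Gadd45b and Gadd45g held in 15 of 15 alternative analyses for each drug. These are bulk RNA samples, in which fewer cells of a kind and less RNA per cell cannot be told apart.

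Oxaliplatin and cisplatin share a platinum centre and differ in the groups around it. Cisplatin carries ammonia ligands and chloride leaving groups, and oxaliplatin carries a diaminocyclohexane ligand and an oxalate leaving group. They were given at the same dose and time, which allowed 1 pair of compounds to be compared for each gene. Gadd45a was 1.55 ± 0.23 lower on the log2 scale in oxaliplatin than in cisplatin, a difference of -1.55 with an interval of -2.01 to -1.09, which is part of the choice of this gene and was not tested. It ran from -1.72 to -1.41 when each library was left out in turn.

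The other members were not distinguished between the drugs. Gadd45b differed by -0.06 in oxaliplatin against cisplatin, with a 95% interval of -0.22 to 0.11 (DESeq2 adjusted p = 0.685). Gadd45g differed by 0.11, with an interval of -0.13 to 0.34 (adjusted p = 0.571), and Gadd45gip1 by 0.16, with an interval of -0.05 to 0.36 (adjusted p = 0.289). Over all genes 19.9% were called in this comparison (8.62% higher and 11.3% lower in oxaliplatin). The libraries of the 2 drugs did not overlap for any of the 4 genes, as held for 68% of all genes. For Gadd45b they all but touched, at 1568.83 normalised counts in oxaliplatin replicate 2 and 1569.49 in cisplatin replicate 1. These p-values do not show that the drugs acted alike on the 3 genes, and the intervals give the differences in size that the data allow.

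**Figure D2:**
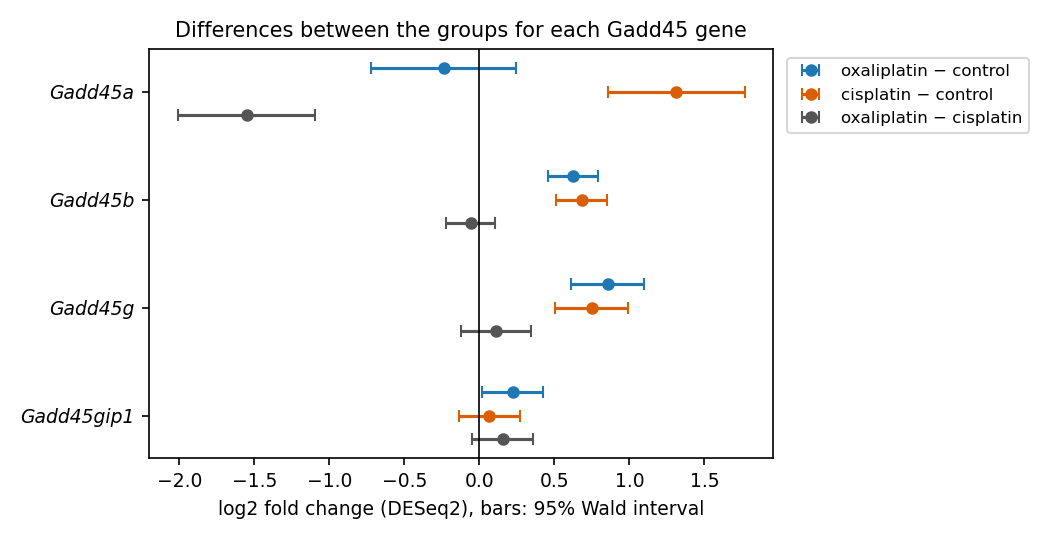
DESeq2 log2 fold changes of the 4 genes for oxaliplatin against control (blue), cisplatin against control (orange) and oxaliplatin against cisplatin (grey), with 95% Wald intervals over 2 libraries per group. The Gadd45a values stand at -0.24, 1.31 and -1.55, while the drug against control values of Gadd45b (0.62 and 0.68) and Gadd45g (0.86 and 0.75) lie close together.

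Levels were compared between genes per kilobase of annotated exon. In control cells Gadd45b stood highest with 626 ± 48.2 normalised counts per kilobase, followed by Gadd45gip1 with 499 ± 72.8, Gadd45g with 294 ± 6.53 and Gadd45a with 59.1 ± 3.79 (SD, n = 2). The order was the same after oxaliplatin, with 965 for Gadd45b, 583 for Gadd45gip1, 533 for Gadd45g and 49.97 for Gadd45a. After cisplatin the levels per kilobase were 1005, 523, 495 and 147. Neighbours in this order did not overlap between libraries in any group, although with the length of the longest transcript Gadd45g passed Gadd45gip1 in both drug groups.

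Gadd45a thus remained the lowest of the paralogs per kilobase also in the cisplatin libraries. Its share of the summed level per kilobase of Gadd45a, Gadd45b and Gadd45g was 6.05% and 6.01% in the control libraries, 3.56% and 2.89% in the oxaliplatin libraries and 8.60% and 9.24% in the cisplatin libraries. Gadd45b held 60.9% to 64.7% of the sum in the 6 libraries. The plain sum of the 3 genes was 1509 and 1380.3 normalised counts in control, 2244 and 2250.4 in oxaliplatin and 2397 and 2474 in cisplatin.

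Deposited counts of Gadd45b and Gadd45g were whole numbers in all 6 libraries, whereas those of Gadd45a and Gadd45gip1 held fractions, which arise where reads were divided among genes. Gadd45a overlaps the antisense transcript E230016M11Rik, which had 12.3 to 23.2 normalised counts. The kit keeps strand, but whether counting used it is not given in the sources used here, so reads where genes overlap on opposite strands are uncertain.

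The protein-coding genes on either side of each member were also read. Next to Gadd45a, Gng12 (0.20 ± 0.05, DESeq2 adjusted p = 0.00127) and Serbp1 (0.24 ± 0.04, adjusted p = 1.16e-09) rose in oxaliplatin. In cisplatin Serbp1 rose by 0.15 ± 0.04 (adjusted p = 2.25e-04), and Gng12 had 0.10 ± 0.05 (adjusted p = 0.17). The call of Gng12 in oxaliplatin was lost without control replicate 1 or either oxaliplatin library (adjusted p up to 0.161), and that of Serbp1 in cisplatin without cisplatin replicate 1 (adjusted p = 0.052). Neither neighbour of Gadd45b (Lmnb2 and Gng7) or of Gadd45g (Sema4d and Diras2) was called under either drug. Beside Gadd45gip1, Dand5 was not called, and Calr, the calcium-binding chaperone calreticulin, fell by 0.39 ± 0.03 in oxaliplatin (DESeq2 adjusted p = 3.89e-39) and had -0.03 ± 0.03 in cisplatin (adjusted p = 0.414).

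The partners of GADD45 proteins were described on lists written by hand, 8 in all with 131 genes, every one of which passed the count filter. Of 12 genes of the p38 and JNK cascades, 0 rose and 2 fell in oxaliplatin, and 1 rose and 3 fell in cisplatin, with medians of -0.05 and -0.04 against medians near 0.00 over all genes. The calls made up 16.7% and 33.3% of the list, near the 20.2% and 28.1% of all genes, so the counts are no result about these kinases as a group. Map3k5, the kinase ASK1, fell by 0.57 ± 0.11 under each drug (DESeq2 adjusted p = 1.13e-06 and 1.05e-06), and its drug difference of 0.00 had an interval of -0.21 to 0.21. Map3k4, the kinase that GADD45 proteins bind, had 973 and 1008 normalised counts in control, 1022 and 984 in oxaliplatin and 799 and 831 in cisplatin. It fell by 0.28 ± 0.09 in cisplatin (adjusted p = 0.0101), a call lost without any 1 of the 6 libraries, where the adjusted p ran up to 0.21. Map2k3, a kinase of p38, rose by 0.26 ± 0.06 in cisplatin (DESeq2 adjusted p = 3.71e-05). Leaving out any 1 of the 6 libraries reduced the calls to 1 in oxaliplatin and to 2 in cisplatin.

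Among 8 cell cycle partners, 3 rose and 1 fell in oxaliplatin, and 2 rose and 0 fell in cisplatin, with medians of -0.01 and -0.06. These were 50% and 25% of the list, against 20.2% and 28.1% of all genes. Pcna, the sliding clamp of replication and repair, fell by 0.19 ± 0.04 in oxaliplatin (DESeq2 adjusted p = 5.55e-05) and rose by 0.34 ± 0.04 in cisplatin (adjusted p = 2.19e-15). Its normalised counts were 7339 and 7114 in control, 6296 and 6407 in oxaliplatin and 9160.1 and 9089 in cisplatin, 3 groups without overlap. Cdkn1a, which encodes the CDK inhibitor p21, had 120.4 and 139.9 in control, 102 and 111 in oxaliplatin and 254 and 263 in cisplatin. It rose by 0.99 ± 0.21 in cisplatin (DESeq2 adjusted p = 3.44e-05), had -0.29 ± 0.23 in oxaliplatin (adjusted p = 0.384) and was lower by 1.28 ± 0.22 in oxaliplatin than in cisplatin (adjusted p = 8.63e-08). Cdc25c, the phosphatase of CDK1, was not called under either drug. The 3 that rose in oxaliplatin, named after their values were seen, were Ccnb1 (0.20 ± 0.04), Cdc25b (0.25 ± 0.07) and Aurka (0.26 ± 0.06). Their DESeq2 adjusted p values were 6.52e-05, 0.00179 and 7.94e-05. Against cisplatin, oxaliplatin had 4 partners called higher and 2 lower, 75% of the list beside 19.9% of all genes. That count fell without either cisplatin library. Without oxaliplatin replicate 2 the calls in oxaliplatin numbered 2.

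Of 9 partners in DNA demethylation and repair, 0 rose and 1 fell in oxaliplatin, and 1 rose and 1 fell in cisplatin, with medians of -0.04 and -0.09. The shares called, 11.1% and 22.2%, lay below those of all genes (20.2% and 28.1%). Tet2, which oxidises methylated cytosine, fell by 0.69 ± 0.16 in cisplatin (DESeq2 adjusted p = 1.87e-04), with 333 and 366 normalised counts in control and 211 and 221 in cisplatin. The repair endonuclease gene Apex1 rose by 0.25 ± 0.07 in cisplatin (adjusted p = 0.00197). Tet3, an enzyme of the same family as Tet2, had the 1 call in oxaliplatin (-0.17 ± 0.07, DESeq2 adjusted p = 0.0452), which was lost without any 1 of the 6 libraries. Without control replicate 2 or cisplatin replicate 2 the call of Apex1 was lost, which left 1 call in cisplatin.

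Of 20 regulators of Gadd45 transcripts, 5 rose and 1 fell in oxaliplatin, and 7 rose and 2 fell in cisplatin, with medians of 0.09 and 0.07. Called were 30% and 45% of the list, beside 20.2% and 28.1% of all genes. Jun, a subunit of AP-1, had 626 and 551 normalised counts in control, 940.4 and 976 in oxaliplatin and 1393 and 1473 in cisplatin. It rose by 0.70 ± 0.10 in oxaliplatin (DESeq2 adjusted p = 1.81e-10) and by 1.29 ± 0.10 in cisplatin (adjusted p = 3.40e-35). Myc, a repressor of Gadd45a in textbook accounts, rose by 0.59 ± 0.08 and 0.99 ± 0.08 (DESeq2 adjusted p = 5.75e-12 and 2.37e-33). Atf4, the transcription factor of the integrated stress response, rose by 0.35 ± 0.04 in cisplatin (adjusted p = 5.90e-15) and had -0.04 ± 0.04 in oxaliplatin (adjusted p = 0.562). Trp53, named after its values were seen, rose by 0.25 ± 0.09 in oxaliplatin (DESeq2 adjusted p = 0.0291) and by 0.48 ± 0.09 in cisplatin (adjusted p = 2.16e-06). Without any 1 of the 6 libraries the Trp53 call in oxaliplatin was lost (adjusted p up to 0.285), and the list had 2 or 3 calls in oxaliplatin, against 7 to 9 in cisplatin.

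Set against cisplatin, oxaliplatin had 4 regulators called higher and 8 called lower, 60% of the list beside 19.9% of all genes. Jun was lower by 0.58 ± 0.10, Myc by 0.40 ± 0.08 and Atf4 by 0.39 ± 0.04 (DESeq2 adjusted p = 5.05e-08, 5.02e-06 and 2.67e-18). Higher were Wt1 by 0.55 ± 0.07, Pou2f1 by 0.42 ± 0.16, Nfkb1 by 0.27 ± 0.07 and Hnrnpd by 0.19 ± 0.05. Their DESeq2 adjusted p values were 1.11e-12, 0.0342, 8.84e-04 and 0.00142, and these 4 were named after their values were seen. Without oxaliplatin replicate 1 the calls fell to 6, and without cisplatin replicate 1 to 7.

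The other genes named for growth arrest or DNA damage were Ddit3, Ppp1r15a and the like-named Ddit4. Called were 100% of this list of 3 under each drug, beside 20.2% and 28.1% of all genes in oxaliplatin and cisplatin. Between the drugs the share was 66.7%, beside 19.9% of all genes. Ddit3 and Ppp1r15a are counted again among the ATF4 targets. Ddit3, formerly Gadd153, encodes the stress factor CHOP, and had 758 and 749.8 normalised counts in control, 1146 and 1167 in oxaliplatin and 1307 and 1307 in cisplatin. It rose in both, by 0.62 ± 0.09 and 0.79 ± 0.09 (DESeq2 adjusted p = 3.25e-11 and 1.39e-18), and its drug difference had an interval of -0.34 to -0.01 (adjusted p = 0.104). Ppp1r15a, formerly Gadd34, encodes a phosphatase subunit that reverses the stress block of translation. It rose by 0.44 ± 0.14 in oxaliplatin (DESeq2 adjusted p = 0.00855) and by 0.96 ± 0.13 in cisplatin (adjusted p = 2.80e-11). Among the fits with a library left out, the oxaliplatin call was lost without control replicate 2, either oxaliplatin library or cisplatin replicate 2, at adjusted p values up to 0.21.

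Ddit4, an inhibitor of mTORC1 also called REDD1, had 2490.5 and 2253 normalised counts in control, 1909.7 and 1902 in oxaliplatin and 3744 and 3598 in cisplatin. It fell by 0.32 ± 0.07 in oxaliplatin (DESeq2 adjusted p = 6.13e-05), rose by 0.63 ± 0.07 in cisplatin (adjusted p = 5.47e-19) and was lower by 0.95 ± 0.07 in oxaliplatin than in cisplatin (adjusted p = 2.77e-41). Of the 3 genes, 2 were called lower in oxaliplatin than in cisplatin, and 1 without oxaliplatin replicate 2 or cisplatin replicate 2.

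Of 19 p53 targets other than Gadd45a, 4 rose and 5 fell in oxaliplatin with a median of -0.09, and 6 rose and 2 fell in cisplatin with a median of 0.34. The shares called were 47.4% and 42.1%, beside 20.2% and 28.1% of all genes. Plk2 rose by 1.19 ± 0.07 and 1.37 ± 0.07, Aen by 0.67 ± 0.11 and 0.77 ± 0.11, and Phlda3 by 0.33 ± 0.10 and 0.54 ± 0.09 in oxaliplatin and cisplatin. Their DESeq2 adjusted p values were 2.81e-56, 9.68e-08 and 0.0034 in oxaliplatin and 1.01e-75, 3.79e-10 and 1.73e-07 in cisplatin. Plk2 encodes a stress-induced kinase, Aen an exonuclease of apoptosis and Phlda3 an inhibitor of AKT. They were named for their adjusted p in cisplatin, and the 5 targets that fell in oxaliplatin are not among them. In oxaliplatin against cisplatin 0 were higher and 8 lower, 42.1% of the list beside 19.9% of all genes. These counts moved with single libraries. In oxaliplatin the 9 calls became 4 without oxaliplatin replicate 1, 5 without oxaliplatin replicate 2 and 5 without control replicate 2, and the call of Phlda3 was lost in the same 3 fits. In cisplatin the 8 calls became 5 without cisplatin replicate 1 and 14 with edgeR. The 8 calls between the drugs became 3 and 4 without oxaliplatin replicates 1 and 2, 3 and 1 without cisplatin replicates 1 and 2, and 13 with edgeR.

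Of 12 ATF4 targets, 3 rose and 8 fell in oxaliplatin with a median of -0.30, 9 rose and 0 fell in cisplatin with a median of 0.40, and against cisplatin 0 were higher in oxaliplatin and 10 lower, with a median of -0.62. The shares called were 91.7%, 75% and 83.3%, beside 20.2%, 28.1% and 19.9% of all genes. Asns, asparagine synthetase, had 4943 and 4866 normalised counts in control, 3130.5 and 3204 in oxaliplatin and 5628 and 5481 in cisplatin. It fell by 0.63 ± 0.05 in oxaliplatin (DESeq2 adjusted p = 1.84e-36) and rose by 0.18 ± 0.05 in cisplatin (adjusted p = 8.09e-04), the latter call lost without control replicate 2 or cisplatin replicate 1 (adjusted p up to 0.098). Psat1, of serine synthesis, fell by 0.23 ± 0.03 and rose by 0.40 ± 0.03 (DESeq2 adjusted p = 3.31e-10 and 7.46e-31). Slc3a2, a subunit of amino acid exchangers, rose by 0.41 ± 0.05 in cisplatin (adjusted p = 3.19e-17). Phgdh, which opens serine synthesis, the pseudokinase gene Trib3 and the glutathione-degrading enzyme gene Chac1 were also called lower in oxaliplatin and higher in cisplatin.

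Trib3 fell by 0.71 ± 0.11 and rose by 0.27 ± 0.10 (DESeq2 adjusted p = 9.48e-10 and 0.0284), Chac1 fell by 0.36 ± 0.14 and rose by 0.64 ± 0.13 (adjusted p = 0.0363 and 1.65e-05), and Phgdh fell by 0.15 ± 0.05 and rose by 0.41 ± 0.05 (adjusted p = 0.00788 and 4.93e-17). The Trib3 call in cisplatin and the Chac1 call in oxaliplatin were each lost without any 1 of the 6 libraries, and the Phgdh call in oxaliplatin without control replicate 1 or either oxaliplatin library. Without oxaliplatin replicate 1 the 11 calls of the list in oxaliplatin became 6. Cebpb, named after its values were seen, Ddit3 and Ppp1r15a were the 3 that rose in oxaliplatin. Cebpb rose by 0.56 ± 0.14 (DESeq2 adjusted p = 6.31e-04), a call lost without control replicate 2 or oxaliplatin replicate 1 (adjusted p up to 0.075).

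Gadd45gip1 was set beside a list of 52 genes drawn up for the mitochondrial large ribosomal subunit. The list includes Oxa1l, which is not itself a subunit gene. In oxaliplatin 17 rose and 1 fell with a median of 0.16, a value below the 0.22 of Gadd45gip1, and in cisplatin 11 rose and 1 fell with a median of 0.11. The calls were 34.6% of the list in oxaliplatin, beside 20.2% of all genes, and 23.1% in cisplatin, below the 28.1% of all genes. Mrpl49 rose by 0.51 ± 0.07 in cisplatin (DESeq2 adjusted p = 1.13e-12), and Mrpl12 and Mrpl21 by 0.31 and 0.32 (adjusted p = 6.53e-04 and 0.00115). The calls of Mrpl12 and Mrpl21 were lost without control replicate 2, and that of Mrpl21 also without either cisplatin library. The counts leaned on single libraries, as the values of Gadd45gip1 did. The 18 calls in oxaliplatin became 6 without control replicate 2, 5 without either oxaliplatin library and 11 without either cisplatin library. The 12 calls in cisplatin became 1 without control replicate 2, 7 without either oxaliplatin library, and 4 and 2 without cisplatin replicates 1 and 2. With edgeR they numbered 28 and 22.

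**Figure D3:**
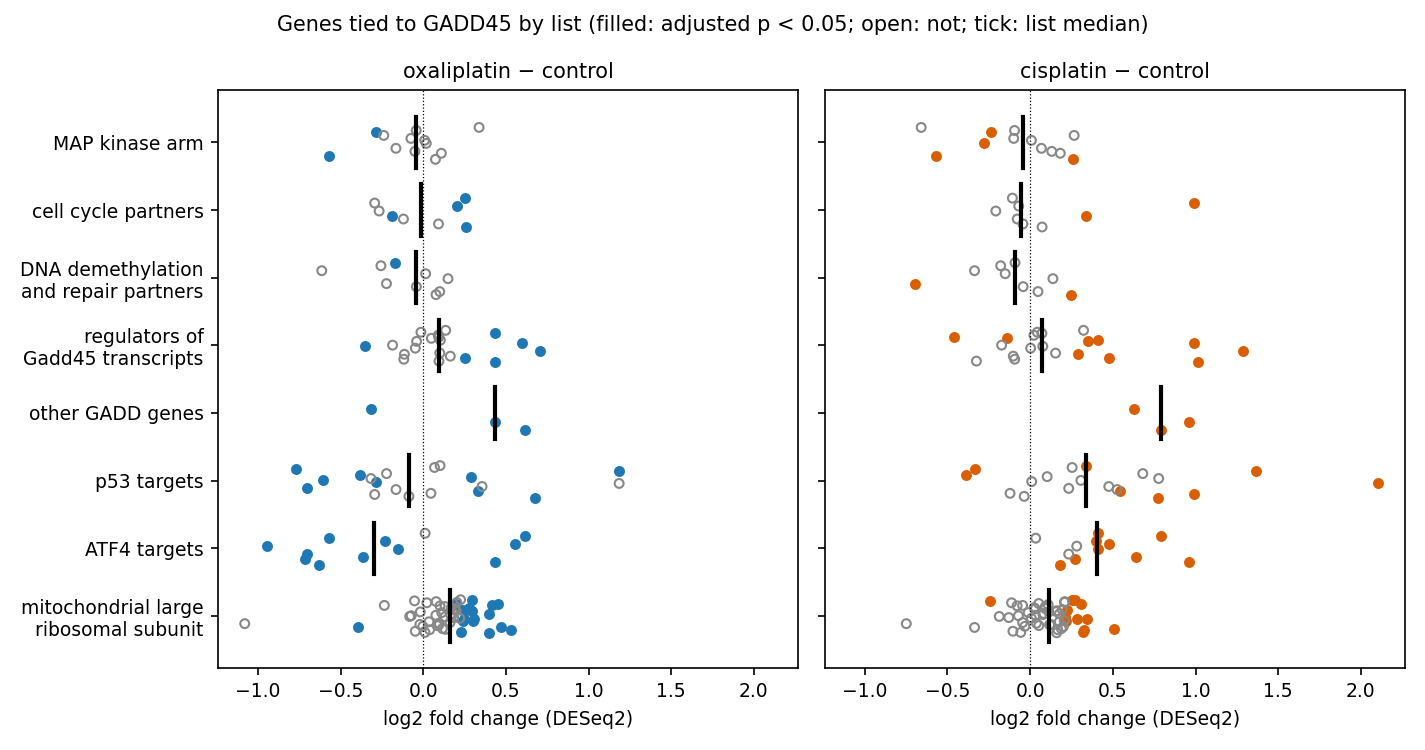
DESeq2 log2 fold changes of the genes of each list in oxaliplatin (left) and cisplatin (right) against control. Each point is a gene, filled where the adjusted p was below 0.05, vertical offsets only separate points, and the black tick is the list's median. The ticks of the ATF4 targets stand at -0.30 on the left and 0.40 on the right, those of the p53 targets at -0.09 and 0.34.

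The genes most like each paralog over the 6 libraries were found by the distance between log2 values after each gene's mean was subtracted, among 11657 genes with a mean of at least 50 normalised counts. Nearest to Gadd45a were Galnt15 (distance 0.288), Cdkn1a (0.520), Ptpn6 (0.576), Prg4 (0.593), Nupr1 (0.615), Arrdc3 (0.644), Pdrg1 (0.663) and Dusp9 (0.666). Galnt15 had 62.3 and 55.2 normalised counts in control, 55.7 and 46.1 in oxaliplatin and 125 and 127 in cisplatin. All 8 were higher in both cisplatin libraries than in the other 4, which follows from the measure. Arrdc3, with 476 and 463 in control, 571 and 608 in oxaliplatin and 1320.5 and 1410.0 in cisplatin, differed from Gadd45a in standing above control in oxaliplatin. With Pearson correlation in place of distance 1 of the 8 was found again, and with a mean of at least 20 normalised counts 4.

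**Figure D4:**
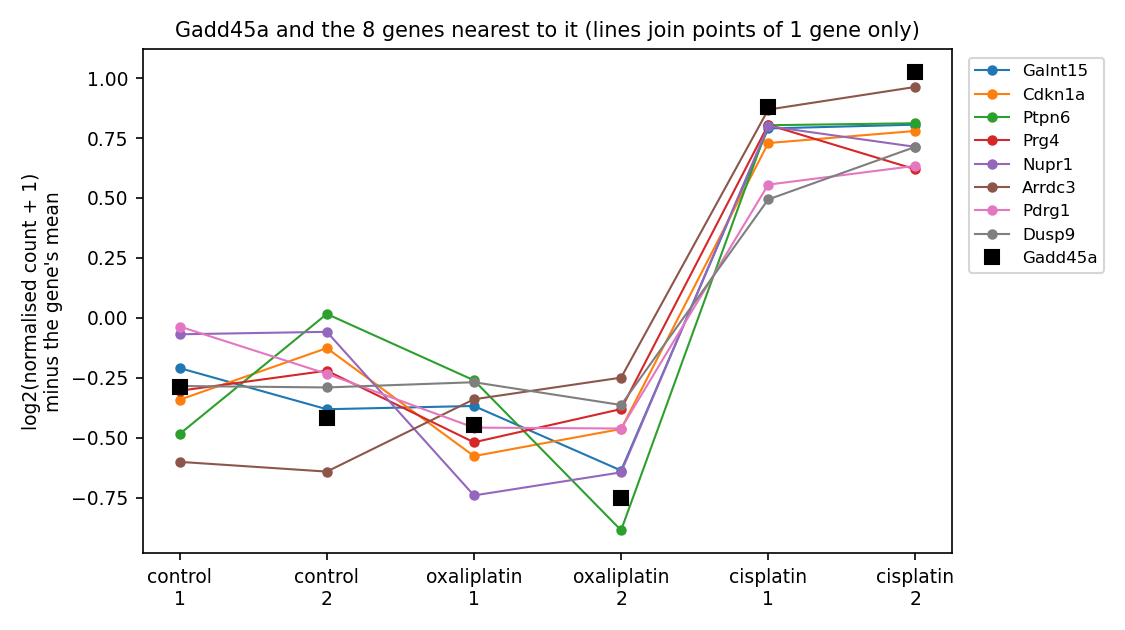
Levels of Gadd45a (black squares) and of the 8 genes nearest to it in the 6 libraries, as log2(normalised count + 1) minus each gene's mean. Lines join the points of 1 gene and mark no order of libraries. Gadd45a and all 8 genes stand above 0 in both cisplatin libraries, and Gadd45a is the highest of the 9 in each of them.

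Nearest to Gadd45b were Foxf2 (0.0991), Nuak2 (0.118), Ntn1 (0.132), Dusp3 (0.145) and Fam72a (0.148), and nearest to Gadd45g were Nop2 (0.109), Klhdc8a (0.113), Dlc1 (0.134), Tlr1 (0.141) and Ccdc137 (0.158). Foxf2 had 329.99 and 295 normalised counts in control, 451 and 463 in oxaliplatin and 491 and 519 in cisplatin. Gadd45b and Gadd45g were 0.277 apart, which made Gadd45g the 117th nearest gene to Gadd45b. Gadd45a was 1.52 from Gadd45b (rank 2590 among genes near Gadd45a) and 1.70 from Gadd45g (rank 5674). Gadd45gip1 was 1.79 from Gadd45a, at rank 7244. These distances describe 6 libraries that share their groups, and carry no test.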

How the data were processed

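RNA of TRAMP-C2 cells was sequenced as poly(A) libraries from 6 samples, 2 each of control, oxaliplatin and cisplatin, grouped by the sample labels. The authors deposited expected counts per gene, estimated by RSEM (1.3.0 with STAR 2.5.3a and GRCm38 p6 in the submitters' processing notes), which divides reads among genes. The study's methods name another counter, featureCounts, for cultured cells. No scaling had been applied, and 7977 to 8235 values per library were not whole. Symbols and positions came from GENCODE M21 (54409 identifiers matched, 53229 in the same version), and promoters from RefSeq on GRCm38.p6.

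Expected counts were rounded. A gene entered the fit where 2 or more libraries had 10 or more counts, and DESeq2 (1.42.0, R 4.3.3) was fitted once to all 6 libraries, as the study's methods name DESeq2, with Wald tests, Benjamini-Hochberg adjustment over all genes, independent filtering at 0.1 and a threshold of 0.05. P-values are two-sided, and genes without an adjusted p were left uncalled. The test was tested on simulated data, where it returned the size and sign of known changes. A first criterion on the share of changed genes recovered, set by guess, was narrowly missed and was replaced by one on genes with ample counts, which was met.

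The members and lists were chosen with earlier results of these data known. Named were the members, from each list the 3 genes leading by adjusted p for cisplatin against control, the whole list of other GADD genes, list genes called in opposite directions by the drugs, the protein-coding neighbours, and the 8 or 5 genes nearest to a paralog. Genes marked as named after their values were seen stood outside this rule. Cell cycle partners shared 1 gene with another list, other GADD genes 2, p53 targets 2 and ATF4 targets 3. A second identifier of Ddit3 had 0 counts and was not used. A few further genes are not reported here. The alternatives, 15 per gene, were edgeR (4.0.16, quasi-likelihood), size factors from TMM or from totals, the count filter dropped or required of all libraries, independent filtering off, a fit to the 4 libraries compared, a replicate block, rounding down and the loss of each library in turn.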

Additional observations from a re-analysis of the deposited data

How the results depend on the processing

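The calls of Gadd45b and Gadd45g against control kept their direction and their side of the threshold under all 15 alternatives, with DESeq2 or edgeR adjusted p from 2.17e-12 to 7.92e-05 and 7.23e-15 to 3.21e-05 for Gadd45b and from 7.42e-11 to 5.90e-04 and 1.65e-08 to 0.00108 for Gadd45g in oxaliplatin and cisplatin. Their log2 values ran from 0.55 to 0.71 and 0.61 to 0.76, and from 0.80 to 0.91 and 0.70 to 0.77. No alternative called Gadd45b, Gadd45g or Gadd45gip1 between the drugs. With libraries left out 1 at a time, Gadd45a in oxaliplatin ran from -0.40 to -0.10, and Gadd45gip1 from 0.084 to 0.38 in oxaliplatin and from -0.075 to 0.22 in cisplatin. The genes called over all 14956, at 3028 in oxaliplatin, 4203 in cisplatin and 2977 between the drugs, ran over the same fits from 1213 to 2159, 2089 to 3021 and 1184 to 2453, and the list genes called, at 51, 46 and 46, from 21 to 36, 27 to 39 and 23 to 39. These fits have fewer libraries, and a lone library of a group is assumed to vary like the others. With edgeR 4618 genes were called in oxaliplatin and 4773 between the drugs, and the cause was not tested. The replicate numbers paired no samples (correlations of same-numbered deviations of 0.0715, -0.0477 and -0.191 over 10731 genes). The replicate block gave 1958 genes in oxaliplatin and 1861 between the drugs, and 31 and 30 list genes, and changed no call of a member. Of the other named genes' values 13 lost their call under the block and 95 kept sign and call, and Ppp1r15a in oxaliplatin was among the former (adjusted p = 0.067), which left 2 of the 3 other GADD genes called. A block with the cisplatin numbers crossed, chosen after seeing the data, gave 1704 between the drugs. Other sign changes were of uncalled values near 0. Map3k5 between the drugs was 0.0048 with edgeR, 0.0042 with TMM, 0.032 with total counts and 0.0026 with only the 4 libraries compared, and ran from -0.079 to 0.067 with a library left out. Slc3a2 in oxaliplatin was -0.0021 and Lmnb2 between the drugs 0.011 with total counts. With a library left out, Slc3a2 in oxaliplatin ran from -0.016 to 0.045, Map3k4 in oxaliplatin from -0.011 to 0.047, and between the drugs Cdc25c from -0.16 to 0.035 and Cebpb from -0.020 to 0.19. For single genes and lists, 1744 of the repeated values kept sign and call, 130 lost and 14 gained a call, 93 moved and 17 changed sign. Another scaling moved the median of all genes by at most 0.0480. With 2 libraries per group, differences can be missed, and an uncalled gene may differ by as much as its interval allows.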
